A study of Mus musculus with 18 samples.

Results

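Lin28a, Lin28b, Nr6a1, Gdf11, Hmga2 and Igf2bp1 are genes of developmental timing. They were picked by symbol, and all 6 were found among the 37224 genes of the count table. RNA was sequenced from cells differentiated out of mouse embryonic stem cells of strain C57BL/6, in 6 groups of 3 libraries. Neuromesodermal progenitors (NMPs), which give rise to spinal cord and to the paraxial mesoderm of the trunk, were wild type or Hoxb1 null. Neural progenitors (NPs) either did not express Hoxb1 or expressed it under doxycycline (DOX), and each kind was cultured without SAG or with SAG, an agonist of Smoothened that switches on hedgehog signalling. Only the NPs with Hoxb1 received doxycycline, and the effect of Hoxb1 and that of the drug cannot be told apart. Whether wild-type and null NMPs, or NPs with and without Hoxb1, came from 1 clone each was not stated by the labels, and neither was whether the 3 libraries of a group were separate cultures. If they were not, p-values measure only a technical spread.

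LIN28A and LIN28B are RNA-binding proteins that block the maturation of let-7 microRNAs, and let-7 in turn represses Lin28 messages, which makes a double-negative switch between early and late states of a tissue. Hmga2, which encodes a chromatin-architecture protein, and Igf2bp1, which encodes an RNA-binding protein of fetal cells, are known let-7 targets. Nr6a1 encodes an orphan nuclear receptor (germ cell nuclear factor) that is needed for the normal number of trunk vertebrae and is known to restrain the onset of posterior Hox genes. Gdf11 encodes a secreted TGF-beta family ligand that acts through activin receptors and Smad2 and Smad3 to end trunk formation and start that of the tail.

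The let-7 family is shown here because its seed, bases 2 to 8 of the microRNA, defines the pairing sites in these messages. All 9 mature let-7 and miR-98 sequences in RefSeq (GRCm38.p6) share 1 seed, in capitals below, and differ in bases outside it.
mmu-let-7a-5p: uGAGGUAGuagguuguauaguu
mmu-let-7d-5p: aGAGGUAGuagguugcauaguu
mmu-let-7e-5p: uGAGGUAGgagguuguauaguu
mmu-let-7g-5p: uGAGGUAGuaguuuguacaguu
mmu-miR-98-5p: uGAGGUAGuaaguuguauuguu

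The match to that seed, CTACCTC, was searched on the sense strand of the longest annotated 3′ UTR of each gene (GENCODE vM21, mm10), and a match followed by A (CTACCTCA) was counted as an 8-base match. Matches were found in 5 of the 6 genes, of which several are known let-7 targets. Lin28a held 2 in 2775 bases, both of 8 bases. Lin28b held 4 in 4445 bases, of which 1 had 8 bases. Nr6a1 held 8 in 4457 bases, of which 3 had 8 bases. Hmga2 held 4 in 3014 bases, of which 1 had 8 bases. Igf2bp1 held 4 in 6337 bases, of which 3 had 8 bases. Gdf11 held none in 2811 bases, which says only that these letters are not in that window. Of 20418 genes with an annotated 3′ UTR, 9.17% held at least 1 match of 7 bases, 3.10% held 1 of 8 bases and 0.152% held 3 or more of 7 bases. A longer UTR has more room for a match: among genes within 10% of the same UTR length, the share with at least 1 was 13.6% for Lin28a, 14.4% for Hmga2, 22.9% for Lin28b and Nr6a1 and 36.4% for Igf2bp1. In the same sets at least as many matches were present in 2.05% for Lin28a, 0.501% for Lin28b, 0.168% for Nr6a1, 0.183% for Hmga2 and 0.424% for Igf2bp1. Each set counts the member itself, so its lowest possible share depends on its size (1173, 599, 595, 1093 and 236 genes in that order). For Nr6a1 and Igf2bp1 no other gene of the set had as many. The 10 matches of 8 bases are printed below with the 21 bases before them, for context. All lie on the minus strand of mm10, are written 5′ to 3′ as in the message, and carry the match in capitals.
Lin28a chr4:134005189-134005217: tggagtgcacagcctgttgaaCTACCTCA
Lin28a chr4:134004551-134004579: tgctttgagatcgccacaaacCTACCTCA
Lin28b chr10:45381022-45381050: cccttcacccgggcgggaagtCTACCTCA
Nr6a1 chr2:38727449-38727477: ccataatgttgacaaagacaaCTACCTCA
Nr6a1 chr2:38726592-38726620: agaaaggaaaggggcattaaaCTACCTCA
Nr6a1 chr2:38723685-38723713: gatggcaagtgcatcatgaacCTACCTCA
Hmga2 chr10:120364224-120364252: gggggcgccgacattcaatttCTACCTCA
Igf2bp1 chr11:95961778-95961806: ggcagtgctgtgcgaagtaaaCTACCTCA
Igf2bp1 chr11:95959357-95959385: gggaaccagcagtgctattaaCTACCTCA
Igf2bp1 chr11:95958763-95958791: ctacgagtataaatggatgaaCTACCTCA

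**Figure D1:**
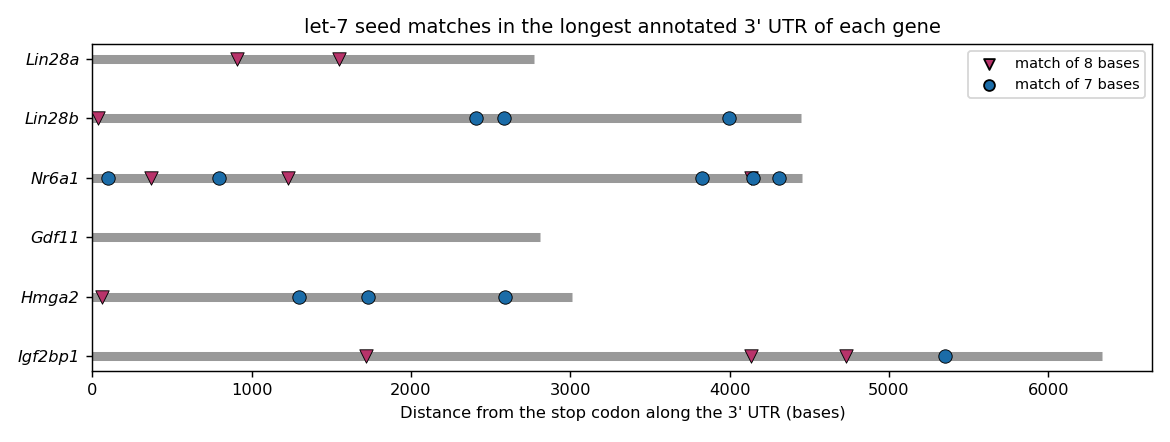
Positions of let-7 seed matches along the longest annotated 3′ UTR of each gene, in bases from the stop codon. Grey bars are the UTRs, triangles are matches of 8 bases and circles are matches of 7 bases. Nr6a1 carries 8 matches and Gdf11 none.

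Mature let-7 itself was not measured, because the libraries were made from polyadenylated RNA. The table lists 13 of 15 let-7 and mir-125 hairpin genes, and none passed the filter on low counts. The highest count in any library was 11, for Mirlet7d.

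Total counts per library ran from 13301476 to 26974315. The targeted gene followed the labels: Hoxb1 stood at 254 ± 16.1 CPM (counts scaled to library size, SD, n = 3) in wild-type NMPs, 15.3 ± 0.844 in null NMPs, 0.358 ± 0.288 in NPs, 323 ± 16.0 in NPs with Hoxb1, 0.459 ± 0.0662 in NPs with SAG and 592 ± 21.2 in NPs with Hoxb1 and SAG. Of the defining NMP genes, T, Nkx1-2, Cdx1 and Cdx2 were high in the NMP libraries (T at 1186 CPM in wild type) while Sox2 was low there (13.4 CPM), although an NMP is usually defined by both T and Sox2. Presomitic mesoderm genes were high there too, with Msgn1 at 360 and Tbx6 at 199 CPM in wild type and a sum over 8 such markers of 883 to 981 CPM in wild-type and 753 to 786 CPM in null NMPs, against 132 to 151 CPM in NPs without Hoxb1 or SAG. The NPs carried Sox2, Sox1, Pax6 and Fabp7 (Sox2 at 391 to 620 CPM as group means), but also neuron genes and some pluripotency genes. The third null NMP library stood apart most: its counts differed from its replicates by a chi-square of 5.07 and 3.93 per gene, against 1.35 to 3.72 for all other pairs of replicates. Library numbers in the labels fall into 3 ranges, which hold the NPs with SAG, the NPs without SAG and the NMPs. Comparisons of SAG with no SAG, and of NMPs with NPs, therefore run across ranges, and the treatment or cell type cannot be told apart from the library set.

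The members spanned unequal ranges over the 6 groups. Lin28a and Nr6a1 varied most, with the highest group mean 27.8-fold and 22-fold above the lowest. Gdf11 varied 8.66-fold, with its highest level in NPs. Igf2bp1 varied 2.74-fold, Hmga2 2.70-fold and Lin28b 1.98-fold. Per kilobase of exon, which allows genes to be compared, Lin28a was the most abundant member in wild-type NMPs (266 ± 3.48 CPM per kb), followed by Igf2bp1 (124 ± 2.39), Nr6a1 (50 ± 1.78), Hmga2 (35.2 ± 0.599), Lin28b (18.5 ± 0.414) and Gdf11 (3.62 ± 0.187). In NPs without Hoxb1 or SAG the order was Igf2bp1 (52.6 ± 2.77 CPM per kb), Hmga2 (20.2 ± 0.392), Gdf11 (16.8 ± 0.567), Lin28a (10.2 ± 0.752), Lin28b (9.71 ± 0.349) and Nr6a1 (2.27 ± 0.0602). Lin28a and Lin28b there did not separate by more than their spread (9.39 to 10.9 and 9.48 to 10.1 CPM per kb). These are bulk libraries, so that fewer cells of a type and less RNA per cell cannot be told apart.

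**Figure D2:**
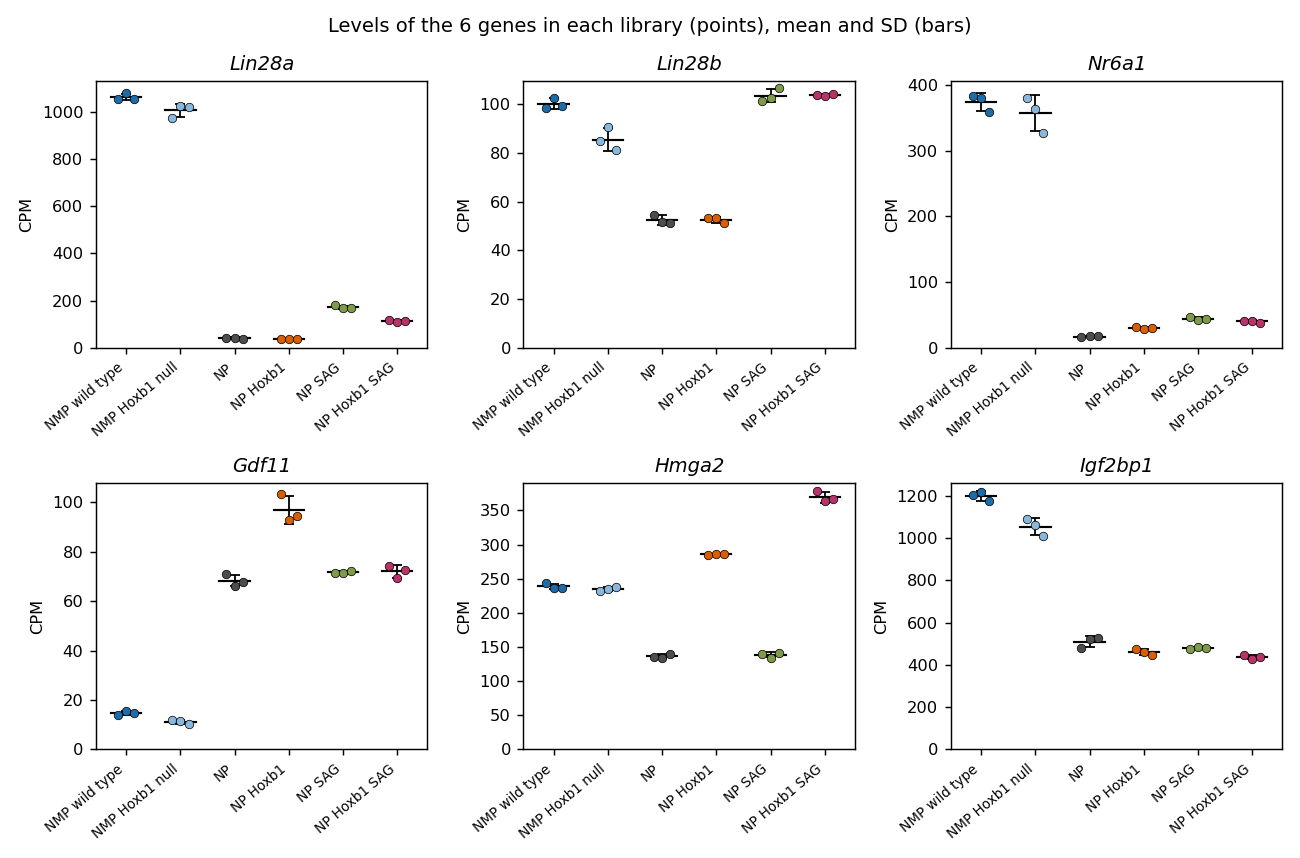
CPM of the 6 genes in each of 18 libraries (points) by group, with the mean and SD of 3 libraries (bars). Lin28a and Nr6a1 stand high in both NMP groups, Gdf11 stands high in the 4 NP groups, and Hmga2 is highest in the NPs with Hoxb1.

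Lin28a (ENSMUSG00000050966, mm10 chromosome 4, 134003330 to 134018841, minus strand) was highest in NMPs. Its libraries held 1055, 1079 and 1055 CPM in wild-type NMPs and 974, 1024 and 1022 CPM in null NMPs. NPs held 41.6, 43.4 and 37.5 CPM without Hoxb1 and 37.2, 38.6 and 38.9 CPM with it. With SAG the values were 179, 170 and 167 CPM without Hoxb1 and 118, 111 and 113 CPM with it. The groups thus ordered as wild-type NMP, null NMP, NP with SAG, NP with Hoxb1 and SAG, and then the NPs without SAG, and only the last pair, with and without Hoxb1, overlapped. An antisense gene, Gm13061, overlaps its exons over 234 bases and reached at most 8 counts in a library.

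Lin28b (ENSMUSG00000063804, mm10 chromosome 10, 45376620 to 45470201, minus strand), the paralog with the same role in let-7 control, followed another order. It held 98.6, 103 and 99.2 CPM in wild-type NMPs and 84.9, 90.5 and 81.2 CPM in null NMPs. NPs held 54.6, 51.6 and 51.2 CPM without Hoxb1 and 53.2, 53.3 and 51.2 CPM with it. With SAG they held 101, 103 and 107 CPM without Hoxb1 and 104, 103 and 104 CPM with it. Both NP groups with SAG overlapped each other and, for those without Hoxb1, the wild-type NMPs as well, while both groups without SAG overlapped at the bottom of the order.

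Hmga2 (ENSMUSG00000056758, mm10 chromosome 10, 120361275 to 120476469, minus strand) was separated by Hoxb1 in the NPs. Wild-type NMPs held 243, 237 and 236 CPM and null NMPs 233, 234 and 238 CPM. NPs held 136, 135 and 140 CPM without Hoxb1 and 285, 286 and 286 CPM with it. With SAG they held 140, 134 and 142 CPM without Hoxb1 and 378, 363 and 366 CPM with it. Every NP library with Hoxb1 stood above every NMP library, and every NP library without Hoxb1 stood below. The 2 NMP groups overlapped, and so did the NPs without Hoxb1 with and without SAG.

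Igf2bp1 (ENSMUSG00000013415, mm10 chromosome 11, 95957163 to 96005940, minus strand) lay in 2 tiers. Wild-type NMPs held 1202, 1219 and 1173 CPM and null NMPs 1089, 1061 and 1010 CPM. NPs held 479, 523 and 527 CPM without Hoxb1 and 475, 461 and 445 CPM with it. With SAG they held 475, 484 and 481 CPM without Hoxb1 and 447, 430 and 436 CPM with it. Each of the 4 NP groups overlapped its neighbour in the order of means, and none of them overlapped an NMP group.

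Nr6a1 (ENSMUSG00000063972, mm10 chromosome 2, 38723370 to 38927688, minus strand) was likewise highest in NMPs. It held 384, 380 and 359 CPM in wild-type NMPs and 380, 364 and 327 CPM in null NMPs. NPs held 16.5, 17.2 and 17.3 CPM without Hoxb1 and 31, 28.3 and 29.6 CPM with it. With SAG they held 46.5, 42.0 and 43.4 CPM without Hoxb1 and 41.3, 40.5 and 38.0 CPM with it. The NMP groups overlapped, and the 4 NP groups stood apart from each other. Its antisense gene Nr6a1os, which shares no exon base with it, was at 0 counts in all 6 NMP libraries, where a count of 0 allows up to 3 counts or 0.142 to 0.182 CPM (counting error only), and at 1.47 ± 0.229 CPM in NPs without Hoxb1 or SAG, 0.753 ± 0.121 with Hoxb1, 0.235 ± 0.0452 with SAG and 0.373 ± 0.0226 with both. At these levels (5 to 23 counts per NP library) it was highest in the NP group where Nr6a1 was lowest.

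Gdf11 (ENSMUSG00000025352, mm10 chromosome 10, 128882295 to 128891718, minus strand) had the opposite distribution between the cell types. It held 13.9, 15.4 and 14.8 CPM in wild-type NMPs and 11.8, 11.5 and 10.2 CPM in null NMPs. NPs held 70.8, 66.2 and 67.7 CPM without Hoxb1 and 103, 92.8 and 94.2 CPM with it. With SAG they held 71.2, 71.4 and 72.0 CPM without Hoxb1 and 74.3, 69.3 and 72.7 CPM with it. NPs with Hoxb1 and no SAG were the only group above the other NP groups, and both groups with SAG overlapped.

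The first comparison asked what changed in NMPs that lack Hoxb1. Lin28b, Gdf11 and Igf2bp1 were lower in null cells by small amounts, and Lin28a, Nr6a1 and Hmga2 did not pass the test. So 0 members were called higher and 3 lower (DESeq2 also called 0 and 3, and at an unadjusted p under 0.05 edgeR gave 0 and 4), where 14.9% of 15032 tested genes were called higher and 13.9% lower (edgeR quasi-likelihood test, adjusted p under 0.05). Gdf11 fell by 0.40 on the log2 scale (SE 0.0917, 95% interval -0.591 to -0.211, edgeR adjusted p = 0.00198), on 166 to 298 counts per library. Lin28b fell by 0.23 (SE 0.0479, edgeR adjusted p = 0.000853) and Igf2bp1 fell by 0.19 (SE 0.0347, edgeR adjusted p = 0.000252). The libraries of the genotypes did not overlap for these genes. The uncalled changes were -0.08 for Lin28a (95% interval -0.15 to -0.0128, adjusted p = 0.0696), -0.07 for Nr6a1 (-0.167 to 0.0254, adjusted p = 0.271) and -0.02 for Hmga2 (-0.101 to 0.0514, adjusted p = 0.661). Lin28a was called lower as well without the third null library (adjusted p = 0.00689) and, on all 6 libraries, with no filter on low counts (adjusted p = 0.042). Without the first null library Nr6a1 was called lower (adjusted p = 0.0423).

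Among genes tied to these pathways, those of the trunk progenitor state were mostly lower in null NMPs. Of 14 tested trunk progenitor genes, 2 rose and 9 fell, with a median log2 change of -0.30 against -0.000128 over all tested genes. Fgf8, a secreted signal of posterior progenitors, fell from 71.4 to 29.8 CPM (log2 change -1.26, edgeR adjusted p = 0.00187). Cdx4, which activates trunk Hox genes, fell from 19.5 to 11.3 CPM (-0.79, edgeR adjusted p = 0.000268). Of 13 tested Hox genes of groups 5 to 9, 9 fell and 0 rose (median -0.78), whereas of 4 tested genes of groups 10 to 13, 3 rose and 0 fell (median 0.92). Both counts of 0 were also 0 at an unadjusted p under 0.05 (edgeR, no other tool was run on the lists). Hoxb9 went from 8.02 to 4.11 CPM and Hoxc13 from 3.00 to 6.53 CPM.

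Of 22 other let-7 target genes, 2 rose and 10 fell (median -0.12). The shares to read the list counts beside are 14.9% higher and 13.9% lower of all tested genes. Hmga1, the paralog of Hmga2, rose from 213 to 367 CPM (log2 change 0.78, edgeR adjusted p = 2.49e-11), while Igf2bp2, the paralog of Igf2bp1, fell from 127 to 86.3 CPM (-0.56, edgeR adjusted p = 3.34e-09). Of 15 tested genes of let-7 processing, 1 rose and 7 fell (median -0.09), including Ago2, which loads microRNAs (299 to 242 CPM). Of 9 tested GDF11 receptors and Smads, 1 rose and 4 fell. Acvr2b, a type II receptor for GDF11, went from 66.4 to 51.2 CPM (-0.38, edgeR adjusted p = 9.75e-06). Of 11 tested genes of GDF11 processing, antagonists and related ligands, 4 rose and 2 fell. Nodal, a related ligand, went from 62.7 to 85.5 CPM and Furin, a convertase, from 125 to 107 CPM. Summed pluripotency markers were 774 to 835 CPM in wild-type and 917 to 1105 CPM in null libraries, mainly Pou5f1 and Tdgf1, with 7 of 10 tested markers higher. Of 10 tested NMP markers, 1 was higher and 8 lower, and of 7 tested presomitic mesoderm markers 2 were higher and 3 lower. These lists share genes in every comparison, so their counts are not separate observations. T, Nkx1-2, Cdx1, Cdx2, Cdx4, Wnt3a, Fgf8 and Fgf17 are both trunk progenitor genes and NMP markers. Pou5f1 and Tbx6 are trunk progenitor genes and also a pluripotency and a presomitic marker, respectively. The part of the markers in these results was not tested.

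The second comparison asked what Hoxb1 changed in NPs without SAG. Hmga2, Nr6a1 and Gdf11 rose, Igf2bp1 fell slightly, and neither Lin28 gene passed the test. The members called were 3 higher and 1 lower, against 24.1% higher and 22.1% lower among 16238 tested genes. Hmga2 rose 2.10-fold (log2 change 1.07, SE 0.0327, edgeR adjusted p = 6.35e-28), Nr6a1 rose 1.76-fold (0.81, SE 0.0708, edgeR adjusted p = 7.02e-13) and Gdf11 rose 1.43-fold (0.51, SE 0.0441, edgeR adjusted p = 4.6e-13). No library of the groups overlapped for these genes. Igf2bp1 fell by 0.14 (SE 0.0329, edgeR adjusted p = 0.000605). Lin28a changed by -0.08 (95% interval -0.197 to 0.0272, adjusted p = 0.217) and Lin28b by 0.01 (-0.0824 to 0.106, adjusted p = 0.862), so that larger changes of either gene lay outside the intervals. Without the third NP library Lin28a was called lower (adjusted p = 0.0464).

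Counts for the related lists are to be read beside the 24.1% higher and 22.1% lower of all tested genes. A list's share near those says nothing about the list. Of 22 other let-7 targets, 7 rose and 6 fell (median -0.00135), among them Arid3a (26.4 to 39.2 CPM) upward and Cdk6, a cell cycle kinase, downward (28.6 to 19.6 CPM). Of 15 let-7 processing genes, 4 rose and 5 fell. Ago1, an Argonaute protein, rose from 323 to 440 CPM, and Xpo5, the exporter of microRNA precursors, fell from 136 to 109 CPM. Of 9 GDF11 receptors and Smads, 2 rose and 1 fell: Acvr2a rose from 89.0 to 128 CPM (log2 change 0.54, edgeR adjusted p = 1.32e-14), Acvr2b rose from 44.9 to 56.8 CPM and Smad4 fell from 167 to 154 CPM. Of 12 tested genes of GDF11 processing, antagonists and ligands, 5 rose and 1 fell, with the convertase Pcsk5 from 14.3 to 23.4 CPM. Of 12 tested trunk progenitor genes, 0 rose and 6 fell, with T from 12.3 to 3.47 CPM. Of 11 tested Hox genes of groups 5 to 9, 0 rose and 1 fell, and of 8 of groups 10 to 13, 0 rose and 0 fell. At an unadjusted p under 0.05 (edgeR) these counts were 1 and 7 for trunk progenitor genes and 1 and 3 for groups 5 to 9. They stayed at 0 and 0 for groups 10 to 13. In NPs without Hoxb1 or SAG those 8 genes stood at only 0.0477 to 0.307 CPM, too few counts for the 0 and 0 to show absence of change. The 11 tested genes of groups 5 to 9 were low there too, at 0.165 to 0.759 CPM except for Hoxb9 (2.84 CPM). Their counts do not show absence of change either. Neuron markers moved with Hoxb1: all 10 were higher, and their sum was 1683 to 1762 CPM without and 2524 to 2674 CPM with Hoxb1. Pluripotency markers moved the other way (11 of 12 lower, sums of 322 to 364 and 168 to 199 CPM), and so did NMP markers (7 of 9 tested lower, 0 higher). Mesenchyme sums were 451 to 479 CPM without and 956 to 989 CPM with Hoxb1 (4 of 8 markers higher, 1 lower). Most of that rise was Col1a2 (128 to 510 CPM), while Prrx1 (24.6 and 18.5 CPM) and Twist1 (21.3 and 19.4 CPM) did not rise. Presomitic mesoderm sums were 132 to 151 and 233 to 242 CPM (1 of 7 tested markers higher, 0 lower). They were mostly Dll1 (117 and 216 CPM), with Tbx6 at 2.70 and 3.61 CPM. The part of any of them in the changes of the members was not tested.

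With SAG, the third comparison gave another set of changes for Hoxb1. Hmga2 rose again, Lin28a fell, Nr6a1 and Igf2bp1 fell slightly, and Gdf11 and Lin28b did not pass the test. The members called were 1 higher and 3 lower, against 21.4% higher and 21.9% lower among all tested genes. Hmga2 rose 2.67-fold (log2 change 1.42, SE 0.0302, edgeR adjusted p = 2.01e-33). Lin28a fell by 0.59 (SE 0.0354, edgeR adjusted p = 7.43e-18). Igf2bp1 fell by 0.13 (SE 0.0318, edgeR adjusted p = 0.00102), and Nr6a1 fell by 0.13 (SE 0.0479, edgeR adjusted p = 0.0241). The fall of Nr6a1 was lost with DESeq2 (adjusted p = 0.0956), without the third library with Hoxb1 and SAG (adjusted p = 0.146) and without the first library with SAG alone (adjusted p = 0.145). Gdf11 changed by 0.01 (95% interval -0.065 to 0.0948, adjusted p = 0.797) and Lin28b by 0.01 (-0.061 to 0.0779, adjusted p = 0.872).

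In the same cells 13 of 22 other let-7 targets rose and 3 fell (median log2 change 0.11). The shares to read the list counts beside are 21.4% higher and 21.9% lower of all tested genes. Myc rose from 9.74 to 20.8 CPM (2.14-fold, edgeR adjusted p = 3.36e-17), Arid3b, a DNA-binding protein, from 62.8 to 99.7 CPM and Igf2bp2 from 210 to 298 CPM. Of 15 let-7 processing genes, 5 rose and 1 fell. Tut4, the terminal uridylyl transferase that marks let-7 precursors bound by LIN28A, rose from 194 to 238 CPM (0.30, edgeR adjusted p = 1.22e-10). Of 9 GDF11 receptors and Smads, 6 rose and 0 fell (also 6 and 0 at an unadjusted p under 0.05). Acvr2a rose from 46.0 to 68.6 CPM, and the inhibitory Smad7 rose 1.31-fold to 28.7 CPM. Of 12 genes of processing, antagonists and ligands, 6 rose and 2 fell. Wfikkn1, which binds and inhibits GDF11, rose from 2.12 to 9.57 CPM (2.17, edgeR adjusted p = 1e-18). Of 12 trunk progenitor genes, 0 rose and 7 fell (0 and 8 at an unadjusted p under 0.05), including Fgf8 (11.2 to 3.11 CPM) and T (29.8 to 9.91 CPM). Hox genes rose in both classes: 9 of 11 tested of groups 5 to 9 rose and 1 fell. Of groups 10 to 13, 8 of 8 tested rose, with Hoxa10 from 1.54 to 6.67 CPM. Without Hoxb1 levels were low, with Hoxc11 at 0.227 and Hoxc12 at 0.194 CPM, while Hoxd12, at 0.374 CPM, did not pass the filter. A gene that passed only through its counts with Hoxb1 and SAG had to be higher there, so these counts were partly fixed in advance. Neuron sums were 992 to 1021 CPM without and 1698 to 1768 CPM with Hoxb1 (6 of 10 markers higher, 2 lower). Most of that rise was in Nefl (38.4 to 343 CPM) and Nefm (22.6 to 268 CPM). Dcx (107.5 and 105.6 CPM) and Map2 (243 and 226 CPM) did not rise. Neural progenitor sums were 1720 to 1810 CPM without and 1292 to 1359 CPM with Hoxb1 (6 of 8 lower, 0 higher). Pluripotency sums were 478 to 519 CPM without and 419 to 457 CPM with Hoxb1 (3 of 12 markers higher, 6 lower). Pou5f1 fell from 132 to 85.8 CPM (log2 change -0.62), while Zfp42 (35.02 and 38.7 CPM) and Dppa5a (63.4 and 68.8 CPM) did not fall. The part of any of these markers in the changes of the members was not tested.

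**Figure D3:**
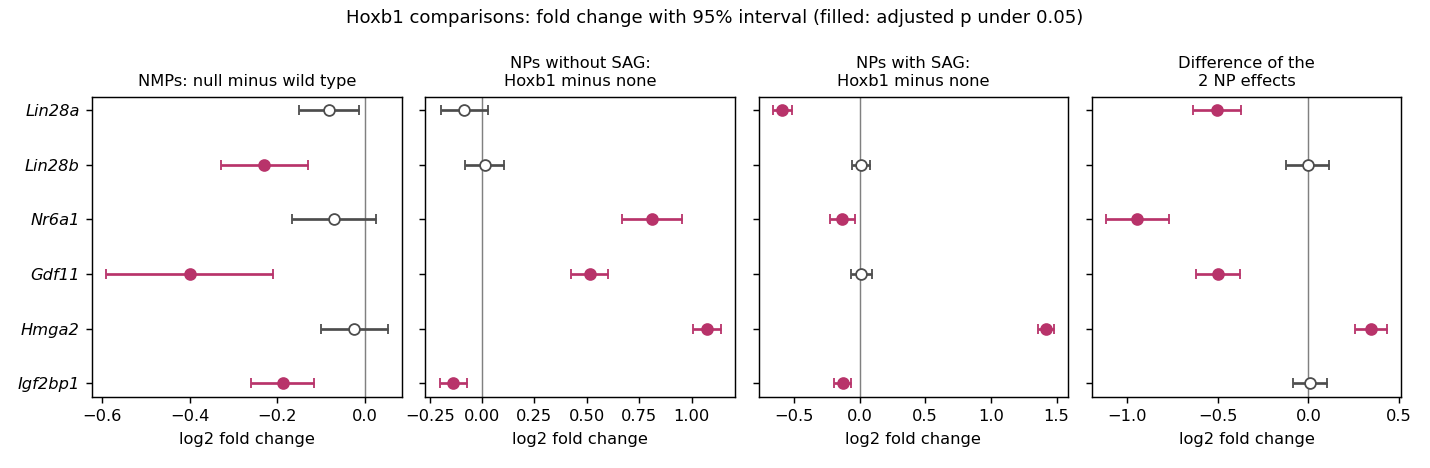
Log2 fold changes of the 6 genes with 95% intervals, in null minus wild-type NMPs, in NPs with minus without Hoxb1 (without SAG, with SAG) and for the difference between those effects. Filled points passed an edgeR adjusted p of 0.05, the x axes differ in range, and Hmga2 rose with Hoxb1 in both NP settings (1.07 and 1.42).

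**Figure D4:**
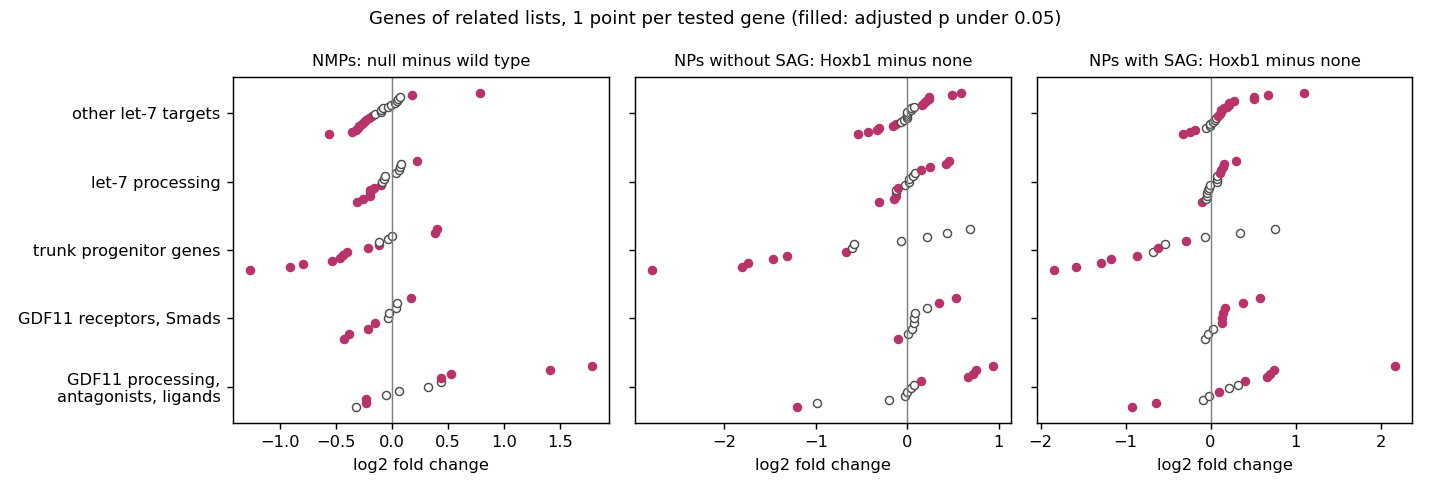
Log2 fold changes of genes on 5 related lists, 1 point per tested gene in order of its change within the list, for the 3 Hoxb1 comparisons. Filled points passed an edgeR adjusted p of 0.05. Trunk progenitor genes lie mostly to the left in all 3 panels.

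The difference between the Hoxb1 effects was tested directly, as the effect with SAG minus the effect without. It was called for 4 members, 1 higher and 3 lower, against 16.8% higher and 18.6% lower among all tested genes. For Nr6a1 the effect was lower with SAG by 0.94 on the log2 scale (SE 0.0856, edgeR adjusted p = 4.64e-12), between a rise of 0.81 and a fall of 0.13. For Lin28a it was lower by 0.50 (log2 difference -0.50, SE 0.0658, edgeR adjusted p = 4.22e-08), and for Gdf11 also by 0.50 (-0.50, SE 0.0593, edgeR adjusted p = 4.92e-09). For Hmga2 it was higher by 0.35 (SE 0.0444, edgeR adjusted p = 3.05e-08). Lin28b (-0.00341, 95% interval -0.12 to 0.114) and Igf2bp1 (0.00876, -0.0837 to 0.101) were not called. Hoxb1 itself stood at 323 CPM without and 592 CPM with SAG in the induced cells, and the part of that in these differences was not tested. Of 22 other let-7 targets, 9 differed upward and 0 downward (10 and 2 at an unadjusted p under 0.05), with Myc at 1.53 (edgeR adjusted p = 4.58e-15). Of 12 genes of GDF11 processing, antagonists and ligands, 2 differed upward and 3 downward, and of 9 receptors and Smads 2 differed in each direction. The difference runs across library-number ranges, and SAG and library set cannot be told apart.

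SAG was compared with no SAG within each Hoxb1 state. Without Hoxb1, both Lin28 genes and Nr6a1 were higher with SAG, and Hmga2 and Gdf11 did not pass the test. The members called were 3 higher and 1 lower, against 36.5% higher and 36.3% lower among all tested genes. Lin28a was 4.22-fold higher (log2 change 2.08, SE 0.0437, edgeR adjusted p = 4.43e-34), Nr6a1 2.59-fold (1.37, SE 0.062, edgeR adjusted p = 1.78e-22) and Lin28b 1.98-fold (0.98, SE 0.0404, edgeR adjusted p = 6.24e-24), with no overlap between libraries. Igf2bp1 was lower by 0.08 (log2 change -0.08, SE 0.0322, edgeR adjusted p = 0.0197) with overlapping libraries, and that call was lost under 5 of 20 alternative settings (adjusted p = 0.0559 to 0.277): no filter, upper-quartile scaling, and without NP replicate 2 or 3 or replicate 1 with SAG. Gdf11 changed by 0.07 (95% interval -0.0164 to 0.157, adjusted p = 0.138) and Hmga2 by 0.02 (-0.0436 to 0.0898, adjusted p = 0.538). Upper-quartile scaling alone called Gdf11 higher (adjusted p = 0.0143).

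With Hoxb1 present, the members called were 4 higher and 2 lower, against 36.4% higher and 35.8% lower among all tested genes. Lin28a was 2.98-fold higher (log2 change 1.57, SE 0.0456, edgeR adjusted p = 3.25e-29) and Lin28b 1.97-fold (0.98, SE 0.0403, edgeR adjusted p = 6.52e-24). Nr6a1 was 1.35-fold higher (0.43, SE 0.0561, edgeR adjusted p = 9.39e-09) and Hmga2 1.29-fold (0.37, SE 0.0297, edgeR adjusted p = 2.19e-14). Gdf11 was lower by 0.43 (log2 change -0.43, SE 0.0409, edgeR adjusted p = 3e-12). Igf2bp1 was lower by 0.07 (log2 change -0.07, edgeR adjusted p = 0.0377), a call lost under 9 of 20 settings (adjusted p = 0.0548 to 0.426). Those were all 18 libraries in the fit, no filter, a stricter filter, upper-quartile scaling, and leaving out replicate 1 or 2 with Hoxb1 alone, replicate 2 or 3 with Hoxb1 and SAG, or replicate 3 with SAG alone. These comparisons share their NP libraries with the Hoxb1 comparisons.

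The counts for related lists are to be read beside the shares of all tested genes called, which were 36.5% higher and 36.3% lower without Hoxb1 and 36.4% and 35.8% with it. A list's share near these is not a result about the list. Of 22 other let-7 targets, 12 were higher and 8 lower without Hoxb1, and 14 and 5 with Hoxb1. Dna2, a helicase and nuclease, went from 17.2 to 43.5 CPM without Hoxb1 and from 23.9 to 52.4 CPM with it. Of 15 let-7 processing genes, 4 were higher and 8 lower without Hoxb1, and 5 and 7 with Hoxb1. Trim71, a let-7 target and conserved partner of the LIN28 pathway, went from 31.5 to 58.6 CPM without Hoxb1 and from 32.7 to 56.4 CPM with it. Of 9 GDF11 receptors and Smads, 1 was higher and 6 lower without Hoxb1, and 2 and 5 with it. Acvr2a went from 89.0 to 46.0 CPM without Hoxb1 and from 128 to 68.6 CPM with it. Among 12 genes of processing, antagonists and ligands, 8 were higher and 1 lower without Hoxb1, and 8 and 3 with it. Fst (follistatin), an antagonist of activins that also binds GDF11, went from 7.56 to 17.6 CPM without Hoxb1 and from 7.68 to 28.5 CPM with it. Hox genes of groups 10 to 13 were higher in 7 of 8 without and 8 of 8 with Hoxb1. Without Hoxb1 these 8 genes were low, at 0.0477 to 0.307 CPM without SAG and 0.194 to 1.58 CPM with it. Genes that passed the filter only through libraries with SAG had to be higher there.

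Markers of other cell types moved across the same libraries. Pluripotency sums went from 322 to 364 CPM to 478 to 519 CPM without Hoxb1 (6 of 12 markers higher, 1 lower) and from 168 to 199 to 419 to 457 CPM with it (12 of 12 higher), with Pou5f1 from 47.9 to 132 CPM and from 29.9 to 85.8 CPM as group means. Neuron sums went down, from 1683 to 1762 CPM to 992 to 1021 CPM without Hoxb1. Mesenchyme sums went up, from 451 to 479 CPM to 2175 to 2210 CPM without Hoxb1 and from 956 to 989 CPM to 2172 to 2378 CPM with it. Neural progenitor sums went from 2410 to 2606 CPM to 1720 to 1810 CPM without Hoxb1 (2 of 8 markers higher, 4 lower) and from 2572.5 to 2642 CPM to 1292 to 1359 CPM with it (8 of 8 lower). Endoderm sums went from 47.7 to 54.4 CPM to 153 to 158 CPM without Hoxb1 (5 of 5 tested markers higher). Most of that rise was Foxa2 (8.73 to 79.1 CPM) and Cxcr4 (38.4 to 68.2 CPM). Gata4 (1.21 and 3.12 CPM), Gata6 (0.593 and 1.56 CPM) and Sox17 (0.806 and 2.25 CPM) stayed low. The part of the markers in the levels of the members was not tested.

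**Figure D5:**
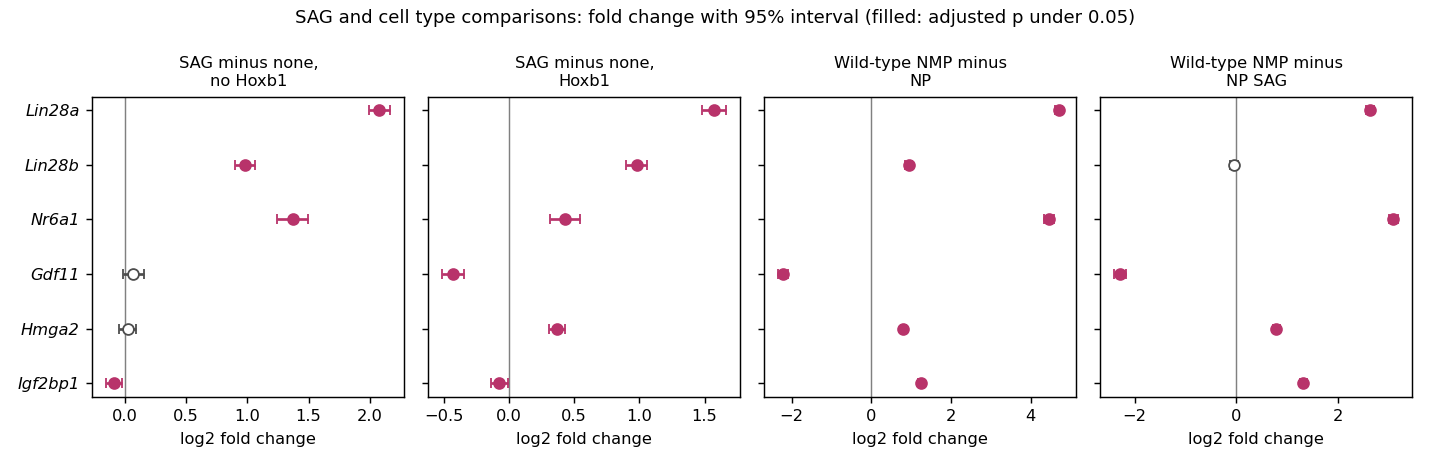
Log2 fold changes of the 6 genes with 95% intervals for the SAG comparisons (NPs that lack or express Hoxb1) and for wild-type NMPs minus NPs (without and with SAG). Filled points passed an edgeR adjusted p of 0.05, the x axes differ in range, and Gdf11 is the member below 0 in both NMP panels.

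Wild-type NMPs were compared with NPs that lacked Hoxb1. Against NPs without SAG, 5 members were higher in NMPs and Gdf11 was lower, where 42.3% of 16761 tested genes were called higher and 43.7% lower. Lin28a was 26-fold higher in NMPs (log2 change 4.70, SE 0.0445, edgeR adjusted p = 2.98e-54) and Nr6a1 22-fold (4.46, SE 0.0581, edgeR adjusted p = 1.03e-45). Igf2bp1 was 2.35-fold higher (1.23, SE 0.0353, edgeR adjusted p = 3.8e-34), Lin28b 1.91-fold (0.93, SE 0.0457, edgeR adjusted p = 2.29e-24) and Hmga2 1.75-fold (0.80, SE 0.0352, edgeR adjusted p = 2.49e-26). Gdf11 was 4.63-fold lower (-2.21, SE 0.0615, edgeR adjusted p = 1.06e-34). The median absolute log2 change over all tested genes was 0.843, below that of each member other than Hmga2. The same contrast moved many markers: all 10 neuron markers and all 8 mesenchyme markers were lower in NMPs, and neuron sums were 323 to 339 CPM in wild-type NMPs. Their part was not tested.

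Against NPs with SAG, 4 members were higher in NMPs and 1 lower, where 41.7% of all tested genes were called higher and 42.7% lower. Lin28a was 6.18-fold higher (log2 change 2.63, SE 0.0366, edgeR adjusted p = 1.95e-47), Nr6a1 8.52-fold (3.09, SE 0.0465, edgeR adjusted p = 3.85e-43), Igf2bp1 2.49-fold (1.32, SE 0.035, edgeR adjusted p = 1.82e-35) and Hmga2 1.72-fold (0.78, SE 0.0337, edgeR adjusted p = 1.59e-26). Gdf11 was 4.85-fold lower (-2.28, SE 0.0582, edgeR adjusted p = 3.83e-36). Lin28b was not called (-0.05, 95% interval -0.127 to 0.0328, adjusted p = 0.265), except with upper-quartile scaling (adjusted p = 0.0111). Both comparisons share the wild-type NMP libraries.

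For the related lists, the shares to read the counts beside are again 42.3% higher and 43.7% lower of all tested genes against NPs without SAG, and 41.7% and 42.7% against NPs with SAG. All 14 trunk progenitor genes were higher in NMPs against either NP group. Evx1 stood at 162 CPM in NMPs and at 0.38 and 0.404 CPM in NPs without and with SAG. That count of 14 was partly fixed in advance. On the NP libraries alone 12 of these genes passed the filter, and Cdx1 and Cdx4 were tested here through their NMP counts. Several of the 14 are also NMP markers. All 14 tested Hox genes of groups 5 to 9 were higher in NMPs against NPs without SAG, and 11 of 14 against NPs with SAG. On the NP libraries alone 11 genes of these groups passed the filter, and genes tested here through their NMP counts had to be higher in NMPs. Of 10 tested genes of groups 10 to 13, 4 were higher and 0 lower against NPs without SAG (also 4 and 0 at an unadjusted p under 0.05, edgeR). Against NPs with SAG, 3 were higher and 6 lower (median log2 change -1.69), where levels in those NPs were at most 1.58 CPM. On the NMP libraries alone 4 genes of groups 10 to 13 passed the filter, and on the NP libraries alone 8 did. Genes tested here only through NMP counts, or only through counts in NPs with SAG, had to be higher there. The counts for groups 10 to 13 were therefore partly fixed in advance. Of 22 other let-7 targets, 13 were higher and 7 lower without SAG, and 12 and 8 with SAG. Arid3b stood at 492 CPM in NMPs against 33.5 and 62.8 CPM. Trim71 stood at 282 CPM in NMPs against 31.5 and 58.6 CPM, and Msi1, an RNA-binding protein that acts with LIN28, went the other way (184 CPM against 624 and 576 CPM). Fst stood at 619 CPM in NMPs against 7.56 and 17.6 CPM, opposite in direction to Gdf11. The type I receptor gene Tgfbr1 was lower in NMPs (88.3 CPM against 183 and 184 CPM).

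The genes most like each member across the 18 libraries were found from the root mean square difference between log2 CPM values, each centred on its own mean, among 10268 genes with at least 10 CPM on average. The closest to Lin28a was Zscan10, a transcription factor of pluripotent cells (difference 0.172, against a median of 1.96 over all candidates), which stood at 147 CPM in wild-type NMPs and 6.75 CPM in NPs, followed by S100a11 (0.313) and Upp1 (0.313). The closest to Nr6a1 were Krt18 (0.215), Inka1 (0.243) and Tuba4a (0.273), against a median of 1.75. The closest to Gdf11 were Sh3pxd2b (0.0958), Tmsb4x (0.133) and Itgb8 (0.15), against a median of 1.27. Sh3pxd2b stood at 46.9 CPM in wild-type NMPs, 227 CPM in NPs and 355 CPM in NPs with Hoxb1. For Igf2bp1 they were Eif3a (0.0737), Hk2 (0.0893) and Prmt5 (0.0972), against 0.64. For Lin28b they were Tpst1 (0.0988), Rad54l (0.109) and Cdc45 (0.11), the latter 2 known for DNA repair and replication, against 0.546. For Hmga2 they were Shc2 (0.243), Acly (0.259) and Meis3 (0.281), against 0.624. Among the members, Lin28a and Nr6a1 were the closest pair (0.493), and Lin28a and Gdf11 the farthest (3.12). These are descriptions over libraries that share groups, depth and library sets.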

How the data were processed

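RNA of 18 libraries was sequenced, and per the labels' protocols polyadenylated RNA was made into strand-specific libraries. Per the submitters' processing notes, bcl2fastq 1.8.2, featureCounts 1.4.6 and mm10 were used, while aligner, annotation release and strand setting were not stated there. The table deposited by the authors holds raw, whole-number counts for Ensembl genes, with exon coordinates and lengths in the same table. All 18 columns of values matched a sample (0 did not). The 6 members, the gene lists and the markers were chosen with earlier results of these data known.

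Counts were tested in R 4.3.3 with edgeR 4.0.16 (filterByExpr, TMM, robust quasi-likelihood F-test, Benjamini-Hochberg over all tested genes). Fits held the 6 NMP libraries (15032 genes), the 12 NP libraries (16238) or all 18 (16761). SE is the log2 change divided by the square root of F. CPM values use TMM over all 18 libraries, and CPM per kb divides by exon length. The tests were tested on simulated data. Levels are limited by counting error and by 3 libraries a group. Pathway genes named for a change had passed the test in that comparison and reached 5 CPM in the higher group. Among such genes they had the 3 largest changes of their list. Hox genes named for low levels in NPs, or because they failed the filter, were outside that rule. Marker genes are named as checks on the cells. Paralogs in the closing section were chosen after their values were seen.

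Let-7 matches came from RefSeq microRNAs and GENCODE vM21 transcripts. Alternatives were RLE and upper-quartile scaling, other filters, DESeq2 1.42.0, other sets of libraries, a replicate block and leaving out each library. Promoters and proteins were not analysed here.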

Additional observations from a re-analysis of the deposited data

Results flagged for a closer look

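For 4 of the 6 genes the effect of Hoxb1 in NPs differed with and without SAG by a test of the difference itself (edgeR, group terms of the 12 NP libraries). The log2 difference, effect with SAG minus effect without, was -0.50 for Lin28a (95% interval -0.637 to -0.371), -0.94 for Nr6a1 (-1.12 to -0.771), -0.50 for Gdf11 (-0.619 to -0.379) and 0.35 for Hmga2 (0.256 to 0.435). Called differences made up 16.8% (higher) and 18.6% (lower) of all tested genes. The sets with and without SAG come from separate ranges of library numbers, and SAG and library set cannot be told apart.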

How the results depend on the processing

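Depth was 13301476 to 26974315 counts per library, and Gdf11 in NMPs, at 166 to 298 counts, was the member with the fewest counts. Replicate numbers did not pair the libraries: 0 of 15 pairs of groups had every same-number correlation over 0.1 (-0.0468 to 0.124). With a replicate block, Nr6a1 changed by -0.13 with Hoxb1 and SAG (adjusted p = 0.0181), and no member's call changed in any comparison. DESeq2 called 1428 genes higher in null NMPs against 2244. With no filter or upper-quartile scaling, 0 members were lower with SAG and no Hoxb1. With SAG and Hoxb1, 1 was lower with all 18 libraries, no filter, a stricter filter or upper-quartile scaling. Against NPs with SAG, 2 were lower in NMPs with upper-quartile scaling. Leaving out 1 library at a time gave 1 to 2 members lower for Hoxb1 without SAG, 0 to 1 for SAG without Hoxb1 and 1 to 2 for SAG with Hoxb1. Changes near 0 that were not called turned sign. For Lin28b with Hoxb1 they were -0.00137 (only the libraries compared), -0.000898 (stricter filter) and -0.0143 (upper quartile) without SAG, -0.0166 (upper quartile) with SAG, and 0.000833 (all 18) and 0.00304 (stricter filter) for the difference. Gdf11 with SAG went to -0.0102 (upper quartile). Leaving out 1 library gave Lin28b -0.00856 to 0.0347 without SAG, -0.0114 to 0.0243 with SAG and -0.0316 to 0.0199 for the difference, Gdf11 -0.00985 to 0.0383 with SAG and Igf2bp1 -0.0167 to 0.0537 for the difference. The cause was not tested.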

Other observations

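Paralogs of Hmga2 and Igf2bp1 were picked after their values were seen. Hmga1 stood at 213 CPM in wild-type NMPs and 10.9 CPM in NPs without Hoxb1 or SAG (log2 change 4.29, edgeR adjusted p = 2.85e-46). In NPs with Hoxb1 it stood at 11.1 CPM and was not called (adjusted p = 0.753), and with SAG it fell from 20.6 to 17.3 CPM with Hoxb1 (-0.24, edgeR adjusted p = 0.00183). Hmga2 rose with Hoxb1 in both settings, and the 2 genes were not tested against each other. Igf2bp2 was lower in NMPs than in NPs (127 and 273 CPM, -1.10, edgeR adjusted p = 8.19e-32) and rose with Hoxb1 both without SAG (0.23) and with SAG (0.51). Igf2bp3 was higher in NMPs (287 and 173 CPM, 0.73, edgeR adjusted p = 7.23e-24) and rose with Hoxb1 without SAG (0.21) and with SAG (0.19).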
